A study of Mus musculus and blank sample with 191 samples.

Results

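The posterior Hox genes measured here were Hoxa9, Hoxa10, Hoxa11, Hoxa13, Hoxc9, Hoxc10, Hoxd9, Hoxd10, Hoxd11 and Hoxd13. They were taken by symbol, and all 10 were present among the 19962 targets of the count table. Of these, 8 were also in the authors' filtered table of 14881 genes, and Hoxc9 and Hoxd13 were not. The samples were regions of fixed mouse uterus read with the GeoMx Mouse Whole Transcriptome Atlas, an assay in which barcoded probes are hybridised to a section, released by light from a drawn region and counted by sequencing. One group of mice carried PV on 1 allele of Thra (PV/N, called PV here), a frame-shifted and dominant negative thyroid hormone receptor α1, and the other was wild type (N/N, called WT). PV is a knock-in allele carried by every cell of the mouse, so its effect in the uterus and its effect elsewhere in the body cannot be told apart here. The PV mice were 2.4, 2.4, 4.0, 4.2, 5.9 and 6.3 months old and are called PV1 to PV6 in that order, and the WT mice were 4.0, 4.5, 5.0, 5.4, 6.3, 6.3, 7.4 and 9.0 months old and are called WT1 to WT8. Epithelium (lumen and glands) and stroma were drawn by a pathologist from morphology and from staining for cytokeratin and smooth muscle actin, on cores of a tissue microarray. Per the study's methods, mice were matched for the oestrous cycle and judged to be in metestrus from inspection and impedance. Where a core lay along the uterine horn is not given in the sources used. The sample labels name 8 WT animals, against 7 in the series' design text (14 and 13 mice in all), and the labels were followed, so that whether the 8 WT names stand for 8 separate mice was not tested.

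Hox genes code for homeodomain transcription factors that lie in clusters, and genes at the same place in different clusters form a paralogue group. In the Müllerian duct, the embryonic tube that becomes the female tract, members of groups 9, 10, 11 and 13 are known to be used in overlapping zones from the oviduct through the uterus and cervix to the upper vagina. Hoxa9 is best known from the oviduct, Hoxa10 from the uterus, Hoxa11 from the lower uterus and cervix, and Hoxa13 from the cervix and vagina. In the adult uterus Hoxa10 and Hoxa11 remain in use in the stroma, where both are needed for implantation and decidualisation. The members lie in the HoxA cluster on chromosome 6, the HoxC cluster on chromosome 15 and the HoxD cluster on chromosome 2 (GRCm38, GENCODE vM21). Hoxa10 spans chr6:52231197-52240854 and Hoxa11 chr6:52242106-52245810, both on the minus strand, so that they are adjacent Hox genes.

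The 250 bases before the start of transcription are shown for this neighbouring pair, which had the clearest stromal signal, and for the 2 members of group 13, which stayed close to the negative probes. The sequences are from RefSeq (GRCm38.p6), read along the strand of the gene, and capitals mark the GC box, GGGCGG or CCGCCC on the opposite strand, to which Sp1 and Klf factors bind, with overlapping matches counted. The windows are Hoxa10 at chr6:52240855-52241104 (minus strand), Hoxa11 at chr6:52245811-52246060 (minus strand), Hoxa13 at chr6:52260881-52261130 (minus strand) and Hoxd13 at chr2:74667975-74668224 (plus strand).
Hoxa10: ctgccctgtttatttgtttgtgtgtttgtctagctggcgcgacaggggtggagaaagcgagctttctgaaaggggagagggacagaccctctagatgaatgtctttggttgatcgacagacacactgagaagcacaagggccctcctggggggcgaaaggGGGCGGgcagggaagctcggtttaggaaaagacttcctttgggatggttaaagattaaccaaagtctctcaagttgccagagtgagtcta
Hoxa11: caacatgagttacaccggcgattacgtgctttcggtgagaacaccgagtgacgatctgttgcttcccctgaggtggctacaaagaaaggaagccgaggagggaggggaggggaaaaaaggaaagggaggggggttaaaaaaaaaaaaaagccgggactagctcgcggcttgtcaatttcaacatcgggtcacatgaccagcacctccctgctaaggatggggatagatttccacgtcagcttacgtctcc
Hoxa13: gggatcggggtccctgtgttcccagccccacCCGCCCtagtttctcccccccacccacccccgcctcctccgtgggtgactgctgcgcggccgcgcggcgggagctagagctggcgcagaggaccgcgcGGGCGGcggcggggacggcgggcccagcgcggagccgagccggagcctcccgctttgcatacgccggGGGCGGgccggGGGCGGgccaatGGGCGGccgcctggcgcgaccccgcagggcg
Hoxd13: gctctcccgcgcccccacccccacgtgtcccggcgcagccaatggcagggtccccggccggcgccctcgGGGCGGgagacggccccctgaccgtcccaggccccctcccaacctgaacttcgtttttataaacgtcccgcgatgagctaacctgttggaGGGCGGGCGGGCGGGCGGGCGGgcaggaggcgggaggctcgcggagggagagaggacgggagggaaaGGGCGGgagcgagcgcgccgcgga

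The windows of Hoxa10 and Hoxa11 held 7 and 13 CG pairs, those of Hoxa13 and Hoxd13 held 35 and 31, and the median over 32851 RefSeq promoter windows of this length was 6. The GC box was present 1 time for Hoxa10, 0 times for Hoxa11, 5 times for Hoxa13 and 7 times for Hoxd13, and 32.7% of all windows held it at least 1 time. Hoxa10 has another window in the table, at chr6:52234940-52235189, with 20 CG pairs and 0 GC boxes, and the one shown is that at the outer end of the gene. The nuclear receptor motif AGGTCA, searched on both strands, to which thyroid hormone receptors can bind, was found in none of these 4 windows, and 14.0% of all windows held it. Such a match is a run of letters and no binding was measured. Of the 10 members, 8 had an entry in the promoter table, with 10 windows in all.

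The comparisons rest on the first of 2 collection plates, with 60 epithelial and 35 stromal regions of 14 mice. The mean log2 value of columnar epithelial markers (Krt8, Cdh1 and others) minus that of fibroblast markers (Dcn, Col1a1 and others) separated these 95 regions by label. The lowest epithelial region was at -0.38 and the highest stromal region at -2.97. A cutoff was set midway, at -1.67, so that all 95 lay on the side of their label by construction. Of the 94 regions collected on the other plate, 36 lay on the side of the cutoff against their label, so that plate was used only as an alternative. First-plate regions held 61691 to 3130397 counts (median 653387), and the regions of a mouse and compartment were summed. WT4 had no stromal region on the first plate. PV2 had a single region per compartment, with 61691 counts in epithelium, where each member had a count of 1 or 2 and could not be told from the negative probes. The regions of a sum share a mouse, and the mouse was the replicate throughout.

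The limit of quantification of a region was the geometric mean of its 210 negative probes times the square of their geometric SD. In stroma, 6 members were above it in most regions (at least 50%), against 49.5% of all targets: Hoxa10, Hoxa11, Hoxd9, Hoxd10 and Hoxd11 in 35 of 35 regions and Hoxa9 in 32. In epithelium, 4 members passed in as large a share of regions, against 48.0% of all targets. These were Hoxd9 in 45 of 60 regions, Hoxa10 in 41, and Hoxa11 and Hoxd11 in 38 each. Hoxd10 passed in 25 epithelial regions and Hoxa9 in 16. The remaining members were rarely above the limit: Hoxa13 in 7 stromal and 0 epithelial regions, Hoxc10 in 8 and 1, Hoxc9 in 4 and 0, and Hoxd13 in 0 and 2. Measurable signal lay in the group 9, 10 and 11 members of HoxA and HoxD, while both HoxC members and both group 13 members were mostly under the limit set by probes with no target. A count at that level sets a limit on detection and does not show that the gene was off.

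Between compartments, the 4 members above the limit in most regions of both (Hoxa10, Hoxa11, Hoxd9 and Hoxd11) were higher in stroma than in epithelium. Hoxa9 and Hoxd10 were also higher in stroma. They passed the limit in most regions of stroma only, so their place among the members with measurable signal rests on the side where they were high. Values are log2 CPM (counts scaled to a common library total) with a prior count of 2, TMM-scaled, for 13 mice with both compartments. Hoxa10 ranged from 6.56 to 9.53 in stroma and from 3.98 to 6.46 in epithelium. The 2 sets of values did not overlap, and stroma was higher within 13 of 13 mice, by 1.80 in WT5 to 3.65 in PV3 (median 2.97, a 7.82-fold difference). In edgeR's quasi-likelihood test with the mouse as a block, Hoxa10 differed by 2.88 ± 0.14 (log2 fold change ± SE, stroma over epithelium, adjusted p = 4.04e-12). Its neighbour Hoxa11, with which it acts in the stroma of the pregnant uterus, differed by 2.65 ± 0.14 (adjusted p = 1.38e-11) and was higher in 13 of 13 mice, although its lowest stromal value (6.01, WT7) lay below its highest epithelial value (6.19, WT5).

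The HoxD members, which lie in the same order along chromosome 2, were also higher in stroma. Hoxd11 differed by 2.47 ± 0.12 (adjusted p = 4.11e-12), Hoxd10 by 2.28 ± 0.13 (adjusted p = 3.53e-11) and Hoxd9 by 2.17 ± 0.15 (adjusted p = 4.91e-10), each higher in 13 of 13 mice and with no overlap between compartments. For Hoxd9 the smallest within-mouse difference was 1.04, in PV5. Hoxa9 differed by 2.08 ± 0.20 (adjusted p = 2.82e-08) and was higher in 13 of 13 mice, with overlap, since PV6 stroma (3.98) was no higher than several epithelial sums. The lower difference of Hoxa9 in PV2, 0.31, came from counts of 1 in epithelium and 2 in stroma.

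The members near the negative probes differed by less. Hoxa13 differed by 0.74 ± 0.16 (adjusted p = 0.000457) and was higher in 10 of 13 mice, and Hoxc10 by 0.66 ± 0.12 (adjusted p = 8.77e-05) and was higher in 12 of 13. Hoxc9 and Hoxd13 could be tested only with no gene filter. There Hoxc9 differed by 0.81 ± 0.12 (adjusted p = 1.00e-05 over 19962 targets), and Hoxd13 by -0.20 ± 0.18 (adjusted p = 0.349). A ratio of counts so close to the negative level is compressed. In all, 8 of the 8 members in the filtered table were called higher in stroma, against 32.3% of all 14881 genes called higher and 63.1% called in either direction, and 6 passed with a log2 fold change over 2, against 2.18% of all genes. Of all genes called, 51.3% were higher in stroma, a share that rose to 66.5% with upper-quartile scaling and 64.5% with the Q3-normalised values, under which the members were still called higher in stroma. The 4 members with no overlap between compartments compare with 2.63% of genes with no overlap in that direction, and the 6 members higher in 13 of 13 mice with 9.22% of genes. Hoxa9, Hoxd10, Hoxa13 and Hoxc10 were not above the limit in most epithelial regions, and their detection rested more on stroma, the side where they were high. Counts that include these genes describe the set and are no support for the difference. In these regions a smaller number of cells that use a gene and less RNA in each cell cannot be told apart.

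**Figure D1:**
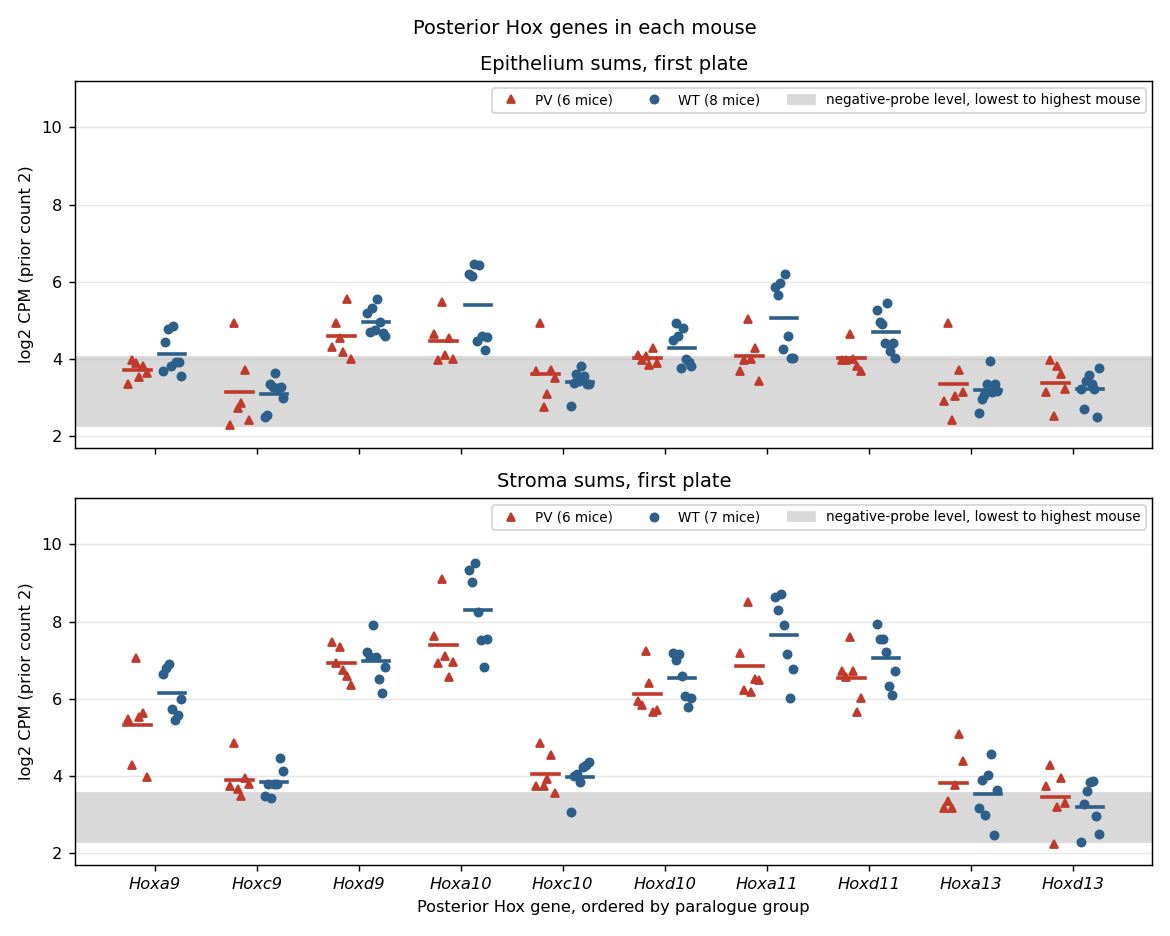
Each point is the first-plate sum of 1 mouse in epithelium (upper panel) or stroma (lower panel), as log2 CPM, for PV (triangles) and WT (circles), with bars at the group means and the range of the negative-probe level in grey. Hoxa9, Hoxd9, Hoxa10, Hoxd10, Hoxa11 and Hoxd11 rise above the grey band in stroma, with WT Hoxa10 reaching 9.53, while Hoxc9, Hoxc10, Hoxa13 and Hoxd13 stay near it in both panels.

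Other Hox genes did not share the stromal side throughout. Of 29 Hox genes outside the set, 21 were in the filtered table, and 13 of these were called higher in stroma and 7 higher in epithelium. Hoxb6 and Hoxb8, of the HoxB cluster, were lower in stroma by 2.92 ± 0.11 (adjusted p = 2.85e-13) and 2.50 ± 0.11 (adjusted p = 2.13e-12) on the log2 scale, so their levels ran opposite to those of the members. Hoxd8, next to Hoxd9 in its cluster, was higher in stroma by 2.37 ± 0.13 (adjusted p = 1.15e-11), a size within the range of the HoxD members. Meis2 and Meis3, which bind DNA together with Hox proteins, were higher in stroma by 1.08 ± 0.17 (adjusted p = 2.77e-05) and 1.12 ± 0.11 (adjusted p = 6.97e-08).

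Among 19 regulators linked to Hox genes, which include nuclear receptors, retinoic acid enzymes and chromatin factors, 7 were higher in stroma and 5 in epithelium. Aldh1a2, which makes retinoic acid, was higher in stroma by 2.07 ± 0.22 (adjusted p = 1.28e-07), Thra by 1.12 ± 0.14 (adjusted p = 9.33e-07) and the retinoic acid receptor Rarb by 0.64 ± 0.10 (adjusted p = 1.45e-05). Of 16 genes that pattern the Müllerian duct, 14 were kept, with 5 higher in stroma and 6 in epithelium. The homeobox genes Msx1, Pax2 and Pax8 had the lowest p, all lower in stroma, by 3.77, 3.15 and 3.07 on the log2 scale. Of 8 genes linked to Hoxa10 or Hoxa11 in the uterus, 6 were kept. Itgb3 and Bmp2 were higher in stroma and Fkbp4, a cochaperone of the progesterone receptor, was lower by 1.87 ± 0.10 (adjusted p = 1.72e-11).

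Between genotypes in epithelium, the fitted difference was below 0 for 8 of 8 members in the filtered table, and none passed adjustment over all genes. The median of these members was -0.42, against 0.01 over all genes. By the mean log2 CPM of the mice, PV was lower for 6 of 10 members. Hoxa13, Hoxc9, Hoxc10 and Hoxd13, which lay near the negative probes, were higher in PV by 0.05 to 0.21. Hoxa11 in PV ranged from 3.44 to 5.04 log2 CPM with a median of 3.99 (6 mice), and in WT from 4.02 to 6.19 with a median of 5.12 (8 mice). The ranges overlapped, with 4 of 6 PV mice below the lowest WT mouse. Among these were PV4, at 4.01, and PV2, at 3.98 from a count of 1 and under its negative level of 4.04. The low end of Hoxa10 in PV, given below, is also PV2. Hoxa11 differed by -1.03 ± 0.42 (PV over WT, adjusted p = 0.551 in edgeR). Hoxa10 ranged from 3.98 to 5.47 in PV and from 4.22 to 6.46 in WT and differed by -0.98 ± 0.43 (adjusted p = 0.589). The WT values spread widely: WT1, WT2, WT3 and WT5 lay at 6.15 to 6.46 for Hoxa10 and WT4, WT6, WT7 and WT8 at 4.22 to 4.60, inside the PV range.

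Hoxd11, the HoxD partner of Hoxa11, ranged from 3.68 to 4.64 in PV and from 4.02 to 5.44 in WT. PV3 was the 1 PV mouse above the lowest WT mouse, and the difference was -0.64 ± 0.26 (adjusted p = 0.550). In an exact two-sided permutation test of the log2 CPM over 3003 splits of the mice, p was 0.0157 for Hoxd11, 0.045 for Hoxa11 and 0.0696 for Hoxa10. These are the lowest 3 of 20 such tests (10 members, 2 compartments) and carry no adjustment. PV2, with a count of 1 for each of these 3 genes, is among the mice permuted. At an unadjusted p under 0.05 in edgeR, 3 of 8 members were lower (Hoxa10, Hoxa11, Hoxd11) and 0 higher, against 3.6% of all genes lower and 8.31% in either direction. After adjustment edgeR called 0.0% of 14881 genes and 0 members, and DESeq2 called 28 genes with 0 members among them. The PV mice were younger (2.4 to 6.3 months, against 4.0 to 9.0 months in WT), so genotype and age are partly mixed in this comparison. With age as a covariate edgeR called 10 genes and 0 members.

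The other epithelial differences were smaller. Hoxa9 differed by -0.47 ± 0.24 (adjusted p = 0.623), Hoxd9 by -0.37 ± 0.25 (adjusted p = 0.724) and Hoxd10 by -0.30 ± 0.23 (adjusted p = 0.754). Hoxa13 and Hoxc10 differed by -0.15 and -0.10, and both changed sign under other processing. Among markers in the same sums, the columnar epithelial list summed to 11.39 to 12.91 log2 CPM in PV and 11.56 to 12.56 in WT, and the fibroblast list to 8.83 to 10.66 in PV and 9.22 to 11.00 in WT. All 10 fibroblast genes had a fitted difference below 0 (median -0.26, against 0.01 over all genes), and 2 had an unadjusted p under 0.05 in edgeR. Of 12 columnar genes, 9 lay above 0 and 3 below. The fibroblast gene with the lowest p was Dcn, a matrix gene among the markers of the compartment where the members were high. It differed by -0.93 ± 0.22 (p = 0.000536 unadjusted, adjusted p = 0.315 in edgeR). The part of stromal RNA in the epithelial values of the members was not tested.

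In stroma the fitted differences ran the same way for 7 of 8 members (median -0.37, against 0.01 over all genes) and none passed. By the mean log2 CPM of the mice, PV was lower for 6 of 10 members, and Hoxa13, Hoxc9, Hoxc10 and Hoxd13 were higher by 0.07 to 0.28. Hoxa10 in PV1 to PV6 was 7.63, 6.94, 9.11, 7.10, 6.56 and 6.96 log2 CPM. In WT it was 9.33, 9.02, 9.53, 8.24, 7.53, 6.83 and 7.55 in WT1, WT2, WT3, WT5, WT6, WT7 and WT8. PV3 lay with the 3 highest WT mice, and the other PV mice lay among the lower WT mice. The difference was -0.87 ± 0.47 (adjusted p = 1.00 in edgeR, exact two-sided permutation p = 0.123 over 1716 splits). Without PV3 it was -1.52 (adjusted p = 0.492), and with age as a covariate -1.40 (adjusted p = 0.433).

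Hoxa11 differed by -0.75 ± 0.44, Hoxd11 by -0.49 ± 0.33, Hoxa9 by -0.42 ± 0.38, Hoxd10 by -0.31 ± 0.30 and Hoxd9 by -0.09 ± 0.27, each with an adjusted p of 1.00. Hoxd9, the member with the smallest difference among those detected in every region, ranged from 6.37 to 7.48 in PV and from 6.16 to 7.91 in WT. Hoxa13 differed by 0.23 ± 0.35, on the other side, and by -0.11 without PV5. At an unadjusted p under 0.05, 0 of 8 members were lower or higher, against 1.39% of genes lower and 3.51% in either direction. After adjustment edgeR called 0.0% of genes and DESeq2 called 2. Smooth muscle markers summed to 9.04 to 10.71 in PV stroma and 8.72 to 10.30 in WT stroma, with Acta2 at a log2 difference of 1.03 ± 0.44 (p = 0.0289 unadjusted, adjusted p = 1.00). Its highest PV sums, in PV1, PV5 and PV6 (10.71, 10.04 and 10.39), stood beside Hoxa10 at 7.63, 6.56 and 6.96, while WT3, at 10.30, had the highest Hoxa10 of all. The part of smooth muscle in the stromal values was not tested.

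**Figure D2:**
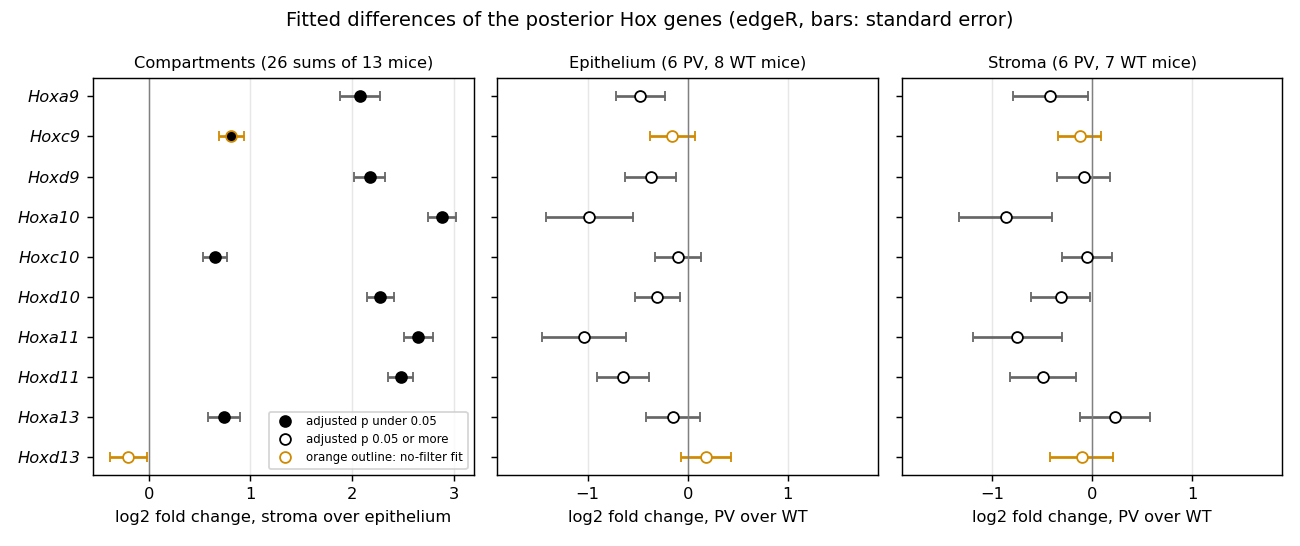
Fitted log2 fold changes of the members (points, bars ± SE) for stroma over epithelium, PV over WT in epithelium and PV over WT in stroma, with filled points for an adjusted p under 0.05 and orange for the 2 genes tested with no gene filter. The left panel shows filled points near 2 to 3 for 6 members, with Hoxa10 at 2.88, and the other panels show open points, with Hoxa11 at -1.03 and Hoxa10 at -0.98 in epithelium.

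No interaction of genotype and compartment passed the test. It was 0.42 ± 0.30 for Hoxd9, 0.39 ± 0.28 for Hoxa11, 0.28 ± 0.23 for Hoxd11 and 0.23 ± 0.27 for Hoxa10 (difference of log2 fold changes, stroma minus epithelium, 26 sums of 13 mice), with adjusted p of 0.811, 0.812, 0.853 and 0.930 in edgeR. With both plates it was -0.28, -0.33, -0.34 and -0.32 for these genes. None of the 8 members was called, with 0.0% of all genes called by edgeR, 1 gene called by DESeq2 and 7.18% of genes at an unadjusted p under 0.05, where 0 members stood. Split at 5 months, the genotype difference changed from the younger to the older class by -0.34 ± 0.91 for Hoxa10 and -0.58 ± 0.55 for Hoxd9 in stroma, and by 0.22 ± 0.91 for Hoxa10 and 0.71 ± 0.44 for Hoxd10 in epithelium. No member was called there (lowest adjusted p 0.888, for Hoxa13 in stroma), with 0.0% of genes called in either compartment. At an unadjusted p under 0.05 stood 0 members in either, against 3.26% of genes in epithelium and 5.52% in stroma. The older PV class held PV5 and PV6 alone, and with the 5.0-month WT mouse in the younger class the stromal value of Hoxa10 was 0.41 and that of Hoxd9 0.04.

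Among other genes of the Hox pathway, none was called between genotypes in either compartment. In epithelium the lowest p among cofactors was for Meis2, 1.36 ± 0.31 higher in PV (adjusted p = 0.262). Among the patterning genes it was for Wnt7a, an epithelial signal that keeps Hoxa10 and Hoxa11 on in the developing uterine stroma, with a difference of 2.34 ± 0.57 (adjusted p = 0.347). Wnt7a ranged from 3.68 to 8.55 log2 CPM in PV and from 3.50 to 6.14 in WT. Among other Hox genes it was for Hoxb8, at -0.48 ± 0.17 (adjusted p = 0.522). In stroma Thra, the gene that carries PV, differed by 0.99 ± 0.29 (adjusted p = 0.960) and Wnt4 by 1.20 ± 0.47 (adjusted p = 1.00).

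In WT stroma the level of several members fell with age. This comparison was added after the values of the mice had been seen, so it describes these 7 mice and is no independent test of the pattern. WT1, WT2 and WT3, aged 4.0 to 5.0 months, had Hoxa10 at 9.02 to 9.53, Hoxa11 at 8.31 to 8.72 and Hoxd10 at 7.00 to 7.18 log2 CPM. WT5, WT6, WT7 and WT8, aged 6.3 to 9.0 months, had Hoxa10 at 6.83 to 8.24, Hoxa11 at 6.01 to 7.91 and Hoxd10 at 5.78 to 6.58. For these 3 genes the younger and older mice did not overlap, nor did they for Hoxa9 and Hoxd11, while for Hoxd9 they did. The split was drawn with the values known, and the share of all genes separated in this way was not counted.

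With age as a number in edgeR over 14881 genes, Hoxa11 fell by 0.45 on the log2 scale per month (SE 0.10, adjusted p = 0.0144), Hoxa10 by 0.45 (SE 0.10, adjusted p = 0.0191) and Hoxd10 by 0.28 (SE 0.07, adjusted p = 0.0265). Hoxd11 gave -0.28 ± 0.08 (adjusted p = 0.0586), Hoxa9 -0.21 ± 0.08 (adjusted p = 0.131) and Hoxd9 -0.16 ± 0.09 (adjusted p = 0.326), while Hoxa13 and Hoxc10 gave 0.04 and 0.16. The 3 members called compare with 2.23% of all genes called lower with age and 5.36% called in either direction. Without WT1, the youngest, 0 members were called (adjusted p = 0.109 for Hoxa10), without WT7 1 member was called, and without WT8, the oldest, 5 were. Each of the other mice left out gave 2 to 4. Over the fits that left out 1 mouse, 147 to 1245 of the 14881 genes were called, and the member counts were not set against the total of each fit.

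Other lists moved with age in the same 7 sums. Of the smooth muscle list, Myh11 and Actg2 rose by 0.42 and 0.38 per month (adjusted p = 0.000493 and 0.00376), and 4 leukocyte genes, led by Itgam and Cd68, were also called higher. Of 10 fibroblast genes, 2 were called lower and 0 higher, with 6 slopes below 0 and 4 above, and at an unadjusted p under 0.05 stood 2 lower and 3 higher. The 2 called were Lum and Hand2, at -0.52 and -0.34 (adjusted p = 0.0123 and 0.0198). The progesterone receptor Pgr, a hormone receptor known to act upstream of Hoxa10, had a slope of -0.61 (adjusted p = 0.0061). Msx1 (-0.38, adjusted p = 0.0265) and Fkbp4 (-0.38, adjusted p = 0.00346) were also lower with age. Cyp26b1 and Cyp26a1, which break down retinoic acid, rose by 0.56 and 0.34 per month (adjusted p = 0.00147 and 0.0194). The anterior genes Hoxb3 and Hoxb4 rose by 0.37 and 0.25 per month (adjusted p = 0.00217 and 0.0296), while the 3 posterior members that were called fell. The part of a changing mix of cells in the slopes of the members was not tested.

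In WT epithelium the slopes of Hoxa10 and Hoxa11 were -0.39 and -0.39 per month (adjusted p = 0.200 and 0.173), and no member was called, against 0.491% of genes called lower and 1.46% in either direction. At an unadjusted p under 0.05, 4 members were lower (Hoxa10, Hoxa11, Hoxd10, Hoxd11), against 7.46% of genes. WT5, aged 6.3 months, had Hoxa10 at 6.44 in epithelium, beside the younger mice. Without WT5, 2 members, Hoxa11 and Hoxd11, were called, and the fits that left out 1 mouse called 0 to 758 genes. In PV stroma Hoxa10 was at 7.63 and 6.94 in the mice of 2.4 months, 9.11 and 7.10 at 4.0 and 4.2 months, and 6.56 and 6.96 at 5.9 and 6.3 months. No WT mouse was younger than 4.0 months, so the low values of PV1 and PV2 have no WT counterpart of their age.

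**Figure D3:**
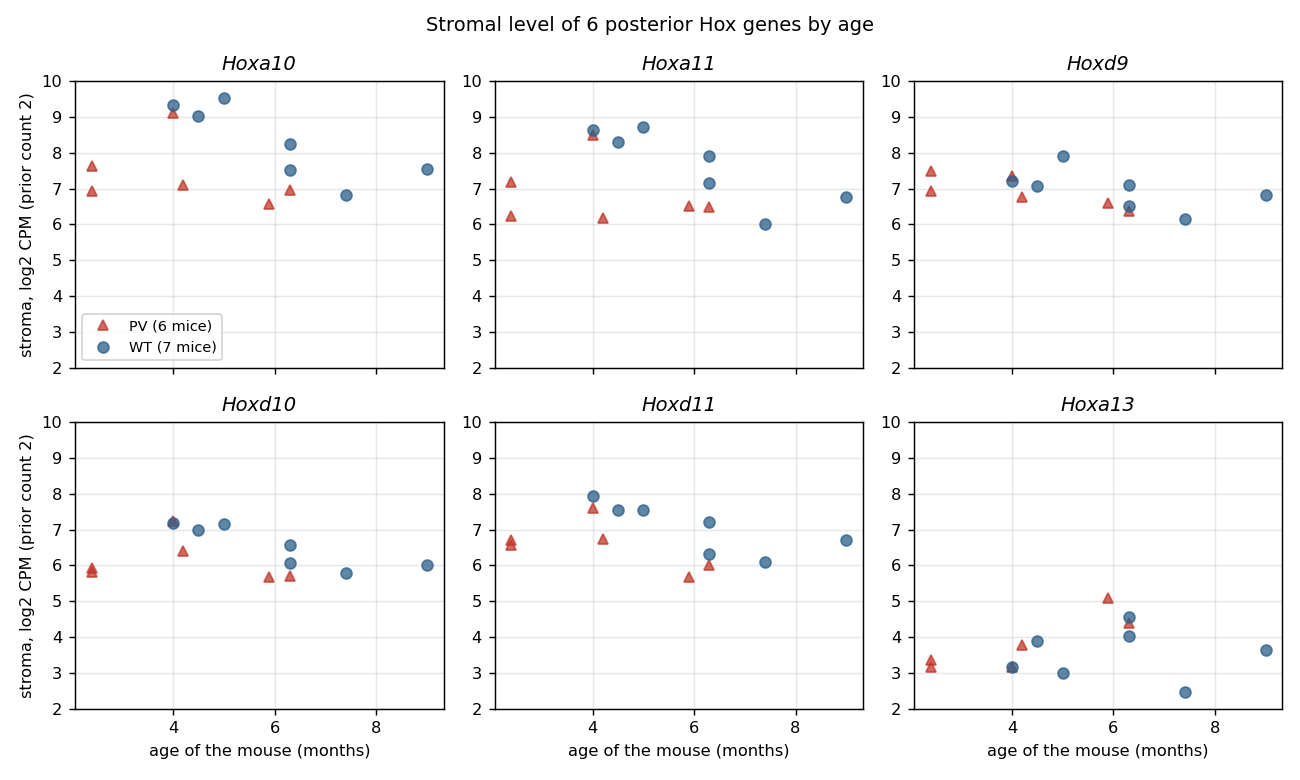
Stromal log2 CPM of 6 members against age in months, 1 point per mouse, PV as triangles and WT as circles. WT mice of 4.0 to 5.0 months lie at 9.02 to 9.53 for Hoxa10 and older WT mice lie lower, while 5 of 6 PV mice lie between 6.56 and 7.63 at all ages and PV3 lies at 9.11. Hoxa13 lies between 2.46 and 5.08.

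The Hox code of the tract was read as Hoxa13, the 1 kept member of group 13, minus the mean of the 5 kept members of groups 9 and 10 in log2 CPM. Probes of different genes differ in efficiency, so that only differences of this index between samples carry meaning. In stroma it ranged from -3.72 to -0.72 in PV (median -2.30) and from -4.11 to -1.39 in WT (median -2.88). The highest values, toward group 13, were those of PV5 (-0.72), PV6 (-0.93) and WT6 (-1.39), and the lowest were those of WT3 (-4.11), PV3 (-3.72) and WT1 (-3.51). The mice with the highest values were 5.9 to 6.3 months old and those with the lowest 4.0 to 5.0 months. The oldest mice, WT7 and WT8 at 7.4 and 9.0 months, were at -3.27 and -2.49. The index was not tested against age. In epithelium it ranged from -1.73 to 0.58 in PV and from -1.88 to -0.67 in WT, and the value of 0.58 was that of PV2, from counts of 1 or 2. Hoxa13 was above the limit of quantification in 0 of 60 epithelial regions, so the epithelial index follows groups 9 and 10 over a Hoxa13 count at the negative level and carries no reading of group 13. In stroma the genotypes overlapped over most of their range.

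In stroma both terms of the index could be read only in PV4, PV5, PV6 and WT6, the mice with Hoxa13 above the limit. In the other mice, which include WT3, PV3 and WT1 with the lowest values, Hoxa13 stayed under the limit in every region. There the index follows its subtracted mean over a Hoxa13 count under the limit and carries no reading of Hoxa13. The subtracted mean includes Hoxc10, which was itself under the limit in most stromal regions. Hoxa13 was above the limit of quantification in 2 of 2 stromal regions of PV5, 1 of 2 of PV6, 2 of 10 of PV4 and 2 of 3 of WT6, and in 0 regions of every other mouse. In PV5 the 2 regions held 15 and 10 counts, or 4.81 and 5.52 times the negative level. The summed stromal Hoxa13 count was 2.21 above the negative level on the log2 scale in PV5, 1.72 in WT6, 1.25 in PV6 and 1.15 in PV4, and between 0.41 below and 1.11 above it in the other mice. Hoxa10 stayed detected in every stromal region, also in PV5, PV6 and WT6, where it was 6.56, 6.96 and 7.53 log2 CPM.

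Markers of the neighbouring segments were mostly under the limit, with PV5 apart. Of 15 genes of the stratified epithelium of cervix and vagina, Runx1 was the 1 gene above the limit in at least 50% of the regions of either compartment, and Trp63, Krt5 and Krt14 were among the 10 not in the filtered table. The list summed to 7.23 to 9.11 log2 CPM in PV epithelium and 7.05 to 7.92 in WT epithelium, and the highest value was that of PV5, the mouse with the highest stromal Hoxa13. Krt5 and Krt14, the keratin pair of basal cells in stratified epithelium, were at 7.24 and 6.56 log2 CPM in PV5 epithelium, against at most 3.98 for both in the other PV mice and 3.72 and 3.58 in WT mice. Trp63, the transcription factor of the same cells, was at 4.68 in PV5 and at most 3.98 in the others. The value of 3.98 was that of PV2, whose negative level in epithelium was 4.04. The paper reports that the lining of the PV uterus itself is often made of stratified squamous cells. It also reports raised keratinocyte pathways in PV uterine epithelium and raised Il33 in older PV mice. These markers cannot tell such a lining from that of the cervix or vagina, and the position of the core is not given. The part of stratified epithelium in the Hoxa13 values of PV5 was not tested. Il33 had the lowest p of the list there (1.56 ± 0.40 higher in PV, adjusted p = 0.356). None of 5 oviduct genes was above the limit in at least 50% of the regions of either compartment, and Ovgp1, the oviductal glycoprotein, differed by -1.99 ± 0.56 in PV epithelium (adjusted p = 0.369).

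Hoxd13 gave a signal of another kind. It stayed under the limit of quantification in 58 of 60 epithelial and 35 of 35 stromal regions. A single PV4 epithelial region held 93 counts, 14.2 times its negative level, and a single WT8 epithelial region held 56 counts, 3.88 times its negative level. Both are the deepest regions of their group, with 1494617 and 3130397 counts, and the other regions of these 2 mice stayed under the limit.

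**Figure D4:**
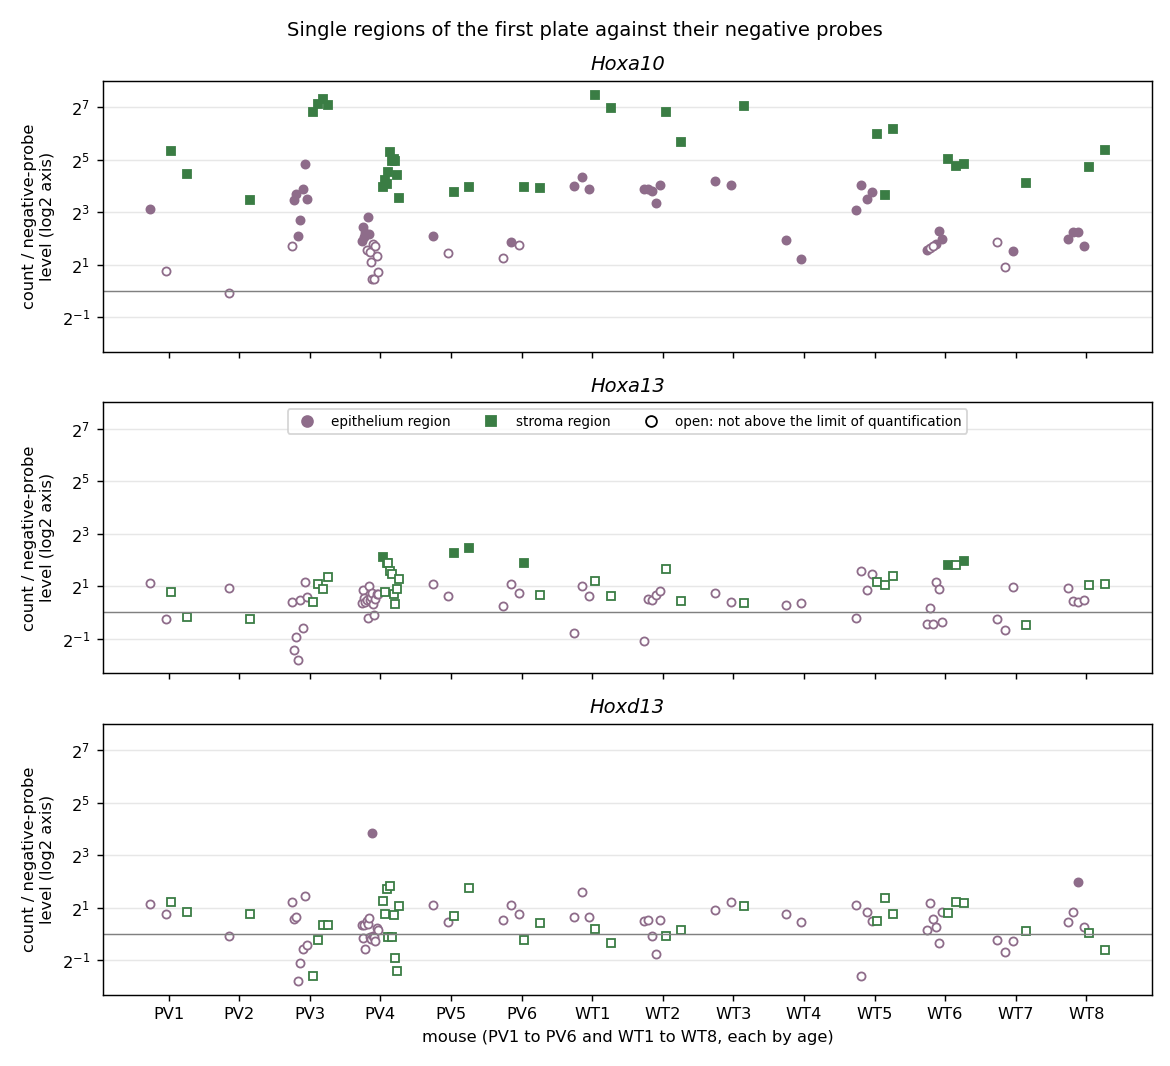
Each point is 1 first-plate region, as its count over its own negative-probe level on a log2 axis, by mouse, for Hoxa10, Hoxa13 and Hoxd13, with circles for epithelium and squares for stroma and open symbols at or under the limit of quantification. Stromal Hoxa10 is filled in 35 of 35 regions, Hoxa13 is filled in 7 stromal regions of PV4, PV5, PV6 and WT6, and Hoxd13 is filled in 2 epithelial regions.

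Regions of a mouse resembled each other to a degree that differed between members and groups. For the variance of log2 Q3-scaled counts over regions, the median share due to mouse over the 8 kept members was 42.9% for epithelium of PV mice and 57.7% for that of WT mice. In stroma it was 72.1% for PV and 55.3% for WT. Over all kept genes the 4 medians were 36.4%, 26.1%, 38.9% and 29.3%. For Hoxa10 the share was 90.3% in WT epithelium and 78.3% in PV stroma, and for Hoxa11 88.2% and 95.0%. In WT stroma it was 58.0% and 46.2% for these genes, and in PV epithelium 40.7% and 48.5%. The lowest shares were in PV epithelium, with 0.0% for Hoxd10 and Hoxd11 and 17.7% for Hoxa9, and in WT epithelium with 13.8% for Hoxa13 and 16.6% for Hoxc10. In PV4, the mouse with the most stromal regions, Hoxa10 ranged over 10 regions from 44.1 to 131 in Q3-scaled counts, and it did not reach the lowest region of PV3, at 289. In WT5 the 3 stromal regions held 78.5, 294 and 325, so that a single mouse held regions near the low PV values and regions near those of PV3.

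Over the 13 stromal sums, the genes whose log2 CPM was most like that of Hoxa10 were Hoxa11 (Pearson r = 0.97), Hoxd10 (0.95) and Gart (0.95), an enzyme of purine synthesis. For Hoxd11 they were Rab34 (0.94), Hoxd10 (0.94) and Hoxa10 (0.94), for Hoxa11 they were Hoxa10 (0.97), Pum3 (0.95) and Dnlz (0.92), and for Hoxd10 they were Hoxa10 (0.95), Hoxd11 (0.94) and Eif5b (0.94). Hoxd9 was most like Tmtc2 (0.93) and Hoxa9 like Uqcrc1 (0.92), with no member among their 3 nearest genes. Hoxa10 had r = -0.36 with Hoxa13 and -0.54 with Hoxc10. These values describe 13 mice of 2 genotypes and several ages, with shared depth and cell mix, and carry no test.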

How the data were processed

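Regions of uterus from 14 mice were analysed. The authors processed Illumina reads with the GeoMx NGS Pipeline 2.3.3.10, per the file headers, and deposited expected counts per target and region: deduplicated probe counts, with a count of 0 replaced by 1 and a negative-probe value that is a geometric mean. They were rounded to whole numbers here. A second table, deposited by the authors, holds signal values, the same counts divided by the third-quartile (Q3) factor of each region, for 14881 targets that passed a detection filter (authors' R 4.1.2). The deposited probe files of single regions gave the 210 negative probes. The labels list mm10 as the build.

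First-plate counts of a mouse and compartment were summed, since regions of a mouse are not replicates, and tested with edgeR 4.0.16 (quasi-likelihood, TMM scaling, R 4.3.3) over the 14881 genes, with Benjamini-Hochberg adjustment and a threshold of 0.05. The compartment contrast and the interaction with genotype carried the mouse as a block. Compartments come from the same animals, and the deviations of the paired sums from their group means correlated with r of 0.16 to 0.53. Log2 CPM used a prior count of 2, and log2 Q3 values a pseudocount of 1. The mean log2 CPM of the genotypes was also compared by exact permutation over mice with scipy 1.17.1. DESeq2 1.42.0, limma 3.58.1, other scalings and filters, both plates, subtraction of the negative level, age as a covariate and each mouse left out were alternatives. The tests were tried on simulated data. The members and the gene lists were chosen with earlier results of these data known. From each list at most 3 genes per comparison are named, those called with the lowest p, or else the gene with the lowest p, and for likeness the 3 genes with the highest r. Nothing in the labels says that the animals were littermates or were collected together. The count over the list of Hox cofactors is not reported here.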

Additional observations from a re-analysis of the deposited data

Results flagged for a closer look

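In 4 of 40 groups of a member, a genotype and a compartment, the highest or lowest mouse lay apart from the others by Dixon's criterion, which chance meets in about 1 in 20 groups. Hoxd11, the partner of Hoxa11 in HoxD, was at 4.64 log2 CPM in PV3 epithelium, from 133 counts, and the next PV mouse was at 4.01. Hoxc10 was low in WT1 in both compartments, at 2.78 in epithelium (15 counts, next mouse 3.34) and 3.06 in stroma (11 counts, next mouse 3.85). Hoxc9 was at 4.85 in PV2 stroma, from 3 counts in 1 region (next mouse 3.94). Hoxc9 and Hoxc10 lay near the negative probes in nearly all regions.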

How the results depend on the processing

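The 8 members called higher in stroma stayed 8 in every fit that left out 1 mouse and, with no replicate block, also numbered 8 (7856 genes called in all, and 0 members for the interaction with genotype). The block changed no call of a member. Upper-quartile scaling moved the median of all genes between compartments from 0.01 to 0.18 toward stroma and each member by 0.17 to 0.18, so that relative to that median no member moved by over 0.02. With both plates, 5688 genes were called between compartments and Hoxc10 was not (0.10, adjusted p = 0.488). The size of the difference did not hold under every setting. Over the alternatives that kept all mice, it ran from 1.34 to 3.24 for Hoxa10, 1.24 to 3.06 for Hoxa11, 1.12 to 2.92 for Hoxd11 and 0.90 to 2.66 for Hoxa9. No member was called between genotypes under any setting, while the number of genes called in PV against WT was 28 with DESeq2, 1 with limma over regions and 10 with age as a covariate in epithelium, and 2 with DESeq2 and 2 with limma over regions in stroma. For genotype by compartment DESeq2 called 1 gene and limma over regions 82, and for genotype by age in stroma DESeq2 called 1. Leaving out 1 mouse gave 0 to 6 genes in epithelium and 0 to 1 in stroma.

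No value whose sign turned had passed its test, and the cause was not tested. PV against WT in epithelium gave Hoxa13 0.28 with limma on Q3 means, 0.039 with limma over regions, 0.14 with both plates and 0.001 with age as a covariate, and Hoxc10 0.22 with Q3 means, 0.17 with both plates and 0.076 with the negative level subtracted. Left-out mice gave -0.29 to 0.061 for Hoxa13 and -0.21 to 0.082 for Hoxc10. In stroma Hoxc10 gave 0.12, 0.042 and 0.17 with Q3 means, limma over regions and the age covariate, and left-out mice gave -0.19 to 0.023 for Hoxc10, -0.11 to 0.44 for Hoxa13 and -0.21 to 0.089 for Hoxd9. The interaction of genotype and compartment turned negative with both plates for all 8 members: Hoxa9 -0.42, Hoxa10 -0.32, Hoxa11 -0.33, Hoxa13 -0.07, Hoxc10 -0.39, Hoxd9 -0.28, Hoxd10 -0.41 and Hoxd11 -0.34. It also turned with Q3 means for Hoxa9 (-0.52), Hoxa13 (-0.081), Hoxc10 (-0.12) and Hoxd10 (-0.21), with DESeq2 for Hoxa9 (-0.082) and with the negative level subtracted for Hoxc10 (-0.025). Left-out mice gave -0.40 to 0.36 for Hoxa9, -0.057 to 0.19 for Hoxc10 and -0.15 to 0.31 for Hoxd10. Genotype by age in epithelium turned with both plates for Hoxa9 (-0.34), Hoxa13 (-0.42) and Hoxc10 (-0.49), with no gene filter for Hoxa9 (-0.02) and Hoxd11 (-0.056), with DESeq2 for Hoxa13 (-0.016) and Hoxd11 (-0.014), and with the 5.0-month mouse moved to the younger class for Hoxd11 (-0.009). The same move in stroma gave 0.41 for Hoxa10, 0.48 for Hoxa11, 0.04 for Hoxd9 and 0.05 for Hoxd10.

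For age in WT epithelium, 1134 genes were called with DESeq2, 53 with upper-quartile scaling and 342 with no gene filter (of those called, 66.4% were higher, against 50.5% with DESeq2), and left-out mice gave 0 to 758 genes and 0 to 2 members, with Hoxc10 at -0.032 to 0.14. In WT stroma left-out mice gave 147 to 1245 genes and 0 to 5 members, with Hoxa13 at -0.053 to 0.22, and Hoxd11 was also called with DESeq2 (-0.28) and with no gene filter (-0.30). The mean index of the tract was -1.88 in WT epithelium with both plates, and read as Hoxa13 minus Hoxa10 it was -2.19 there, and for stroma -3.56 (PV) and -4.75 (WT). With both plates the median share of variance between mice was 12.7% in PV stroma and 3.3% in WT epithelium. Depth limits Hoxa13, Hoxd13, Hoxc9 and Hoxc10 throughout, and every member in PV2 epithelium.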
